A study of Mus musculus with 4 samples.

Results

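Collecting duct principal cells are the water- and sodium-reabsorbing epithelial cells at the end of the nephron. A rule meant to find them took 508 single cells of mouse kidney, called members here, out of 41076 cells that passed the same cell filters in 4 libraries. The label was met in part: 202 of the 508 also carried abundant S100g and Klk1, known from the connecting tubule, and less Aqp2, Aqp3 and Fxyd4. The members are thus Aqp2- and Hsd11b2-positive cells, and not all are principal cells by these markers. The members were chosen by each cell's own counts of unique molecular identifiers (UMIs), each UMI standing for 1 captured transcript. It had to have at least 300 genes, at most 50% mitochondrial UMIs, at least 3 UMIs of Aqp2 and at least 1 of Hsd11b2. It could have at most 1 UMI of Atp6v1g3, at most 1 of Slc12a3 and at most 10 of Slc34a1, genes of intercalated, distal convoluted and proximal tubule cells. The rule gave 96 of 10123 cells at 0 h (0.948%, exact binomial 95% interval 0.769 to 1.16), 99 of 9477 at 1 h (1.04%, 0.850 to 1.27), 187 of 11120 at 4 h (1.68%, 1.45 to 1.94) and 126 of 10356 at 12 h (1.22%, 1.01 to 1.45). The share was highest in the 4 h library. Since the rule read gene counts, these shares and the genes of the rule are descriptions of the choice and not findings.

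Principal cells take up water through a pair of channels. Vasopressin, acting on the receptor encoded by Avpr2, places aquaporin 2 in the apical membrane, and aquaporins 3 and 4 let water leave across the basolateral side. Sodium enters through the epithelial sodium channel (Scnn1a, Scnn1b, Scnn1g) under aldosterone, whose receptor Nr3c2 is shielded from glucocorticoid by the enzyme encoded by Hsd11b2 and whose target Sgk1 encodes a kinase that keeps the channel at the surface. FGF23 is a bone-derived hormone that lowers phosphate reabsorption and acts on cells that carry an FGF receptor together with the co-receptor Klotho (gene Kl).

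The study followed the kidney over time after 1 injection of FGF23. Male and female C57BL/6 mice, 10 weeks of age, were given 0 µg (0 h) or 10 µg per mouse of recombinant human FGF23 (rhFGF23) into the peritoneum, and kidneys were taken at 0, 1, 4 or 12 h. Kidneys of male-female pairs were pooled before the cells were released, red cells were lysed, dying cells were removed by Annexin V, and libraries were made with the 10x Genomics 3' V3 kit. The labels give no genetic change, and each time has 1 library. There is thus no replicate check and no test between times, and every interval below covers counting error only. The 0 h library carries 0 µg and 0 h in its labels, while its deposited matrix is named for saline at 1 h. Whether those mice were injected is not known. The time of day at which kidneys were taken is not given, so time after injection and time of day cannot be told apart.

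The 4 libraries held 12245 to 13813 barcodes and 139675666 to 158838728 UMIs. Member cells had median depths of 10405, 10357, 13769 and 11155.5 UMIs at 0, 1, 4 and 12 h and medians of 3220 to 3591 genes, so the 4 h members were the deepest. Summed over the members, the libraries gave 1221198, 1154387, 3010382 and 1546995 UMIs. Median mitochondrial shares were 19.9%, 22.0%, 16% and 20.6%. The libraries shared 36 to 57 cell barcodes per pair, and 1 member barcode was in both the 0 h and the 4 h members. Doublet calls numbered 3, 0, 12 and 8 among the members. By Xist against Y-linked genes, 33 members were called female and 51 male at 0 h, 46 and 38 at 1 h, 73 and 79 at 4 h, and 54 and 57 at 12 h.

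The label was checked against markers that the rule did not use. The genes of the rule itself, given as a description, had a median per member of 52, 45, 63 and 47.5 UMIs of Aqp2 and 53.5, 49, 44 and 56 of Hsd11b2 at 0, 1, 4 and 12 h. The markers outside the rule were Aqp3 and Fxyd4 (a regulator of the sodium pump). Aqp3 was detected in 95.8%, 96.0%, 90.9% and 97.6% of members and Fxyd4 in 88.5%, 82.8%, 79.7% and 93.7%. At the threshold itself, 9, 4, 6 and 5 members had exactly 3 UMIs of Aqp2, and 4, 6, 3 and 3 cells failed only by having 2. Among cells that met the Aqp2 and Hsd11b2 limits, 43, 28, 93 and 43 were over the Atp6v1g3 limit. Over the Slc34a1 limit were 21, 13, 26 and 15, and a cell over both limits is in both counts. Cells failing only through Hsd11b2 numbered 7, 16, 25 and 12.

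Markers of other cell classes were low beside those of principal cells but not absent. Summed intercalated cell markers stood at 231, 219, 159 and 209 CPM (UMIs scaled to the same total for each library's members) at 0, 1, 4 and 12 h, against 15258 to 18392 for principal cell markers. The principal sum includes Aqp2 and Hsd11b2, and the intercalated, distal convoluted and proximal sums include the genes that the rule capped. These sums are thus in part fixed by the choice. Over all other cells the intercalated sums were 131, 173, 324 and 234 CPM, so the members were above them at 0 and 1 h. Endothelial markers were at 42.4 to 107 CPM and immune markers at 22.5 to 214. Summed markers of the thick ascending limb, the segment before the distal tubule, reached 410, 443, 72.4 and 345 CPM, and those of the proximal tubule 495, 351, 990 and 1975. Fibroblast and podocyte markers together had 0, 1, 2 and 0 UMIs. Distal convoluted markers were at 22.9 to 109 CPM and red blood cell markers had 2 to 14 UMIs. Connecting tubule markers were the exception, at 27429, 40056, 38053 and 32924 CPM. These were the most abundant of the lists. Most of these UMIs came from a subset of members described next, but Calb1, 1 gene of the list, was found more widely. The planned measure, at least 3 summed UMIs of Calb1, Slc8a1 and Trpv5, was met by 85.4%, 89.9%, 94.7% and 94.4% of members. Besides, 46 members (6, 7, 23 and 10) held clear counts of endothelial, urothelial, immune, smooth muscle, thick ascending limb or proximal tubule markers. Urothelial markers had 62 UMIs at 1 h and 1, 0 and 0 at 0, 4 and 12 h. Results that rest on these 46 cells are given with and without them.

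Members fell along a wide range of S100g (calbindin-D9k, a calcium carrier) and Klk1 (tissue kallikrein), genes known from the connecting tubule that joins the distal tubule to the collecting duct. Of the 508 members, 292 had under 5 UMIs of both together, 184 had 100 or more and 32 lay between. Members with 20 or more are called S100g/Klk1-high here and the others S100g/Klk1-low. The cut was chosen after the values were seen and makes a range, not a cell type. Within 5 to 19 UMIs lay 2, 2, 5 and 5 members, and within 20 to 99 lay 5, 3, 5 and 5. The high range held 38 of 96 members at 0 h (39.6%, exact 95% interval 29.7 to 50.1), 47 of 99 at 1 h (47.5%, 37.3 to 57.8), 73 of 187 at 4 h (39.0%, 32.0 to 46.4) and 44 of 126 at 12 h (34.9%, 26.6 to 43.9). These intervals overlap. Median depth was 11267, 11447, 14705 and 13027 UMIs in the high range and 10152.5, 9855, 12605.5 and 10634 in the low range. Median mitochondrial shares were 30.2%, 31.2%, 23.5% and 27.2% against 16.2%, 15.8%, 11.9% and 16.6%, so the high range was richer in mitochondrial RNA in every library.

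**Figure D1:**
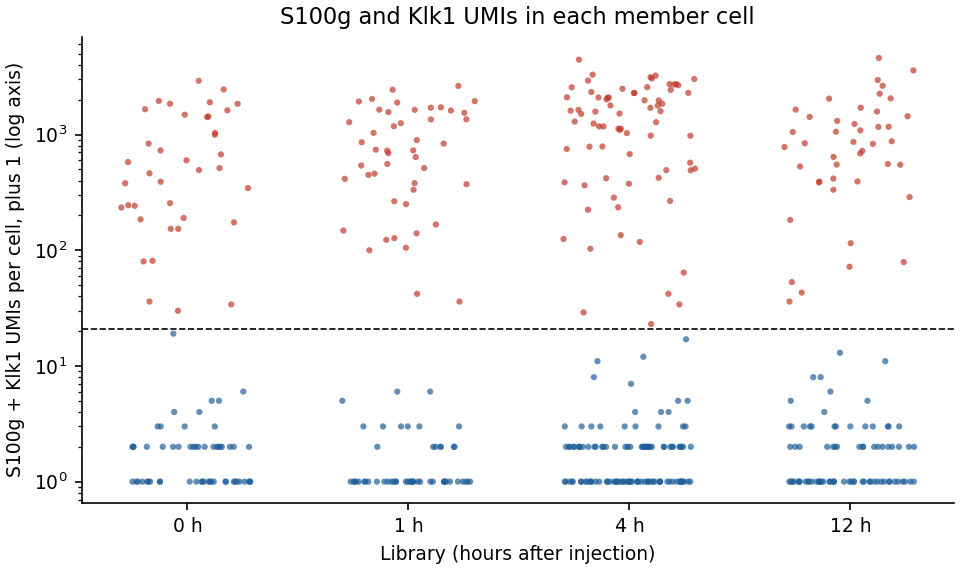
Each point is 1 member cell, placed by library (hours after injection) and by its summed UMIs of S100g and Klk1 plus 1 (logarithmic axis), with S100g/Klk1-high members in red, S100g/Klk1-low members in blue and the cut of 20 as a dashed line. In every library most members lie either near the floor of the axis or at 100 or more, and 32 of the 508 lie between 5 and 99.

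The principal cell genes were present on both sides of the cut but at different levels. Aqp2 stood at 2371, 1527, 2138 and 1780 CPM in the high range and 8804, 7807, 8210 and 5662 in the low range at 0, 1, 4 and 12 h. Aqp3 stood at 782, 626, 510 and 588 against 3028, 2646, 2199 and 2347. Fxyd4 stood at 1162, 693, 728 and 1031 against 5068, 5388, 5374 and 4592. All 3 genes were lower in the high range in each of the 4 libraries. An Fxyd4 UMI was found in 27 of 38, 30 of 47, 35 of 73 and 36 of 44 high-range members and in every low-range member. Scnn1g, the gamma subunit of the sodium channel, did not follow this order, at 480, 499, 414 and 440 CPM in the high range and 404, 457, 442 and 507 in the low range. Hsd11b2 was also lower in the high range in each library but by less, at 3996, 3652, 2456 and 3585 against 5462, 5228, 3924 and 5853.

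Several calcium-transport genes showed the reverse order, but not Trpv6. Slc8a1, the basolateral sodium-calcium exchanger, stood at 139, 91.9, 274 and 182 CPM in the high range and 3.94, 5.10, 10.6 and 7.43 in the low range. Trpv5, the apical calcium channel, stood at 86.9, 101, 112 and 82.6 against 5.26, 3.40, 7.42 and 8.50. Calb1 (calbindin-D28k) stood at 4191, 3574, 5304 and 3093 against 1067, 1318, 1531 and 1764, so it separated the ranges less sharply. Trpv6, the other apical calcium channel, had few counts and was lower in the high range in every library, at 3, 2, 5 and 2 UMIs (6.51, 3.54, 4.45 and 3.30 CPM) against 15, 12, 49 and 17 (19.7, 20.4, 26.0 and 18.1 CPM). Per cell, the median high-range member had 20.5, 13, 22 and 15 UMIs of Aqp2 and 26.5, 20, 67 and 31 of Calb1 at 0, 1, 4 and 12 h. The median low-range member had 87.5, 73, 95.5 and 58 of Aqp2 and 11, 13.5, 19 and 16 of Calb1. Pvalb and Slc12a1, of the distal convoluted tubule and thick ascending limb, had a median of 0 UMIs on both sides. Atp6v1b1, from the intercalated cell markers, did not. Its medians were 2, 2, 1 and 2 UMIs in the high range and 2, 1.5, 2 and 2 in the low range.

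**Figure D2:**
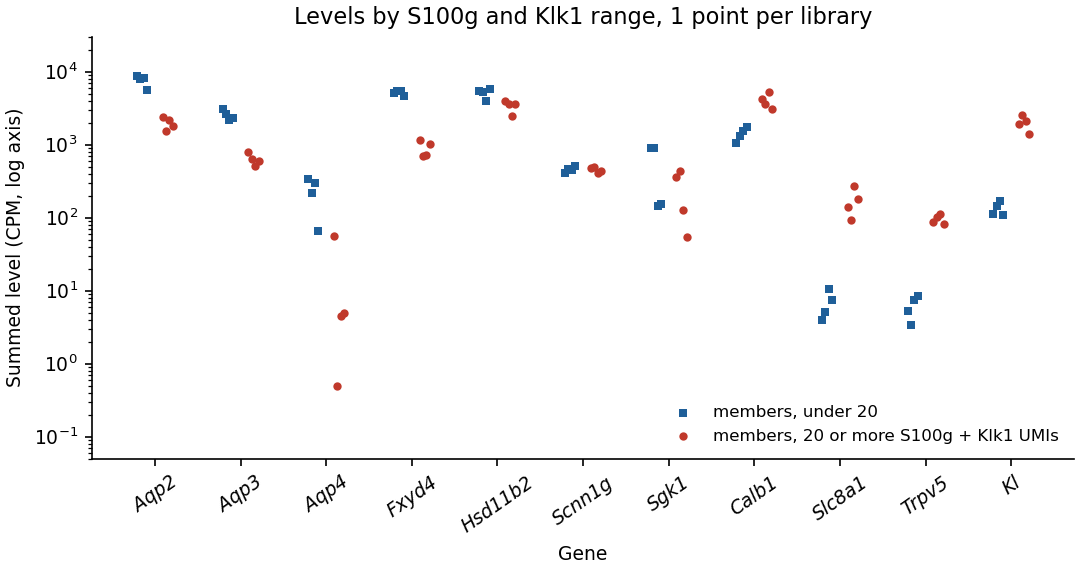
Summed level in CPM (logarithmic axis) of 11 genes in S100g/Klk1-high (red circles) and S100g/Klk1-low members (blue squares), with 1 point per library in order of time from left to right and no error bars. Aqp2, Aqp3, Aqp4, Fxyd4, Hsd11b2 and Sgk1 lie lower and Calb1, Slc8a1, Trpv5 and Kl higher in the high range in all 4 libraries. Scnn1g does not keep 1 order, and the high-range Aqp4 point at 1 h, which had 0 UMIs, is drawn at 0.5.

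Many other genes differed along the same range. After leaving out the 46 members with markers of other classes, 6697 genes had at least 100 UMIs over the 4 libraries. Of these, 60 (0.896%) were at least 2-fold higher in the high range in every library with a counting interval that excluded 1, and 205 (3.06%) were lower by the same rule. The 60 include S100g and Klk1, which define the range. The higher genes included Pth1r, the parathyroid hormone receptor, at 172, 252, 179 and 178 CPM against 14.4, 3.71, 7.49 and 3.64. They also included the kinase gene Wnk1 at 1160, 1317, 1354 and 903 against 60.4, 81.7, 64.6 and 43.7, and Fxyd2, the gamma subunit of the sodium pump, at 2838, 3527, 4723 and 1793 against 155, 85.4, 142 and 122. Atp2b4, a plasma membrane calcium pump, had 103, 160, 109 and 103 CPM in the high range and no UMI in the low range of any library. The genes lower in the high range included the transcription factor gene Elf5, at 15.4, 0, 1.00 and 0 against 43.1, 48.3, 42.2 and 25.5 CPM. Lcn2 (lipocalin 2) was at 17.6, 6.24, 14.0 and 38.1 against 178, 176, 324 and 198. Since these cells were divided by their own expression, the counts describe the range and are not a test of it.

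The FGF23 co-receptor was read in both ranges. Kl (ENSMUSG00000058488, GRCm38 chr5:150952607-150993817, plus strand) had 954, 1513, 2676 and 959 UMIs over all members at 0, 1, 4 and 12 h, which is 781, 1311, 889 and 620 CPM. In the high range it stood at 1889, 2524, 2101 and 1414 CPM, and in the low range at 110, 144, 166 and 109. Kl was thus higher in the high range at every time, and 870 of its 954 UMIs at 0 h came from the 38 high-range members. A Kl UMI was found in 38 of 38, 47 of 47, 73 of 73 and 42 of 44 high-range members. In the low range the shares were 63.8%, 65.4%, 74.6% and 59.8%, and in intercalated cells, which should lack Klotho, 22.1%, 15.5%, 14.5% and 15.6% at median depths of 13617.5, 14392.5, 11380 and 12750 UMIs. After thinning each cell to 3000 UMIs the low-range shares were 25.9%, 39.2%, 29.1% and 22.2% and the intercalated shares 6.06%, 8.57%, 7.21% and 4.35%. In CPM, however, intercalated cells stood at 127, 111, 142 and 24.4, so the low-range level was not above theirs at 0 h, was close to it at 1 and 4 h and was higher at 12 h, at 109. The thinned low-range shares were higher at all 4 times. Since share and level had opposite orders at 0 h, no order is read there, and whether low-range Kl lies above the background of free RNA in droplets was not tested.

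Relative to 0 h, Kl over all members was higher at 1 h (log2 ratio 0.75, 95% counting interval 0.63 to 0.86) and lower at 12 h (-0.33, -0.46 to -0.20), with 0.19 (0.08 to 0.29) at 4 h. The high range gave 0.42 (0.30 to 0.54), 0.15 (0.04 to 0.27) and -0.42 (-0.56 to -0.28). The low range gave 0.39 (-0.07 to 0.84), 0.59 (0.24 to 0.96) and -0.02 (-0.44 to 0.42). The value over all members at 1 h exceeded that of either range, and the high range, with its higher level, held 47.5% of members at 1 h against 39.6% at 0 h. In distal convoluted cells, taken here as cells with at least 3 UMIs of Slc12a3 and at most 1 of Aqp2, Kl stood at 1117, 1196, 1001 and 708 CPM, log2 ratios of 0.10, -0.16 and -0.66. All these ratios share the 0 h library. With a mitochondrial limit of 25%, which removed 33, 43, 45 and 44 members, the ratios over all members were 0.31, 1.24 and 0.20 from a 0 h level of 240 CPM, so the sizes and the sign at 12 h depended on that limit.

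Among the FGF receptors, Fgfr2 had 70, 91, 195 and 97 UMIs in the members, or 57.3, 78.8, 64.8 and 62.7 CPM. It stood at a like level in both ranges, 60.8 and 55.2 CPM at 0 h. Distal convoluted cells had 19.8, 19.3, 11.6 and 12.9 CPM of Fgfr2 and intercalated cells 9.68, 8.64, 12.6 and 8.14, all below the members. Fgfr1 had 33, 44, 70 and 49 UMIs in the members, Fgfr3 had 2, 2, 5 and 4, and Fgfr4 had 0, 0, 0 and 2. The last pair is within or near the floor of 3 counts that a count of 0 allows. The list of Klotho and FGF receptors held 9 genes, of which 4 had 100 UMIs or more.

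**Figure D3:**
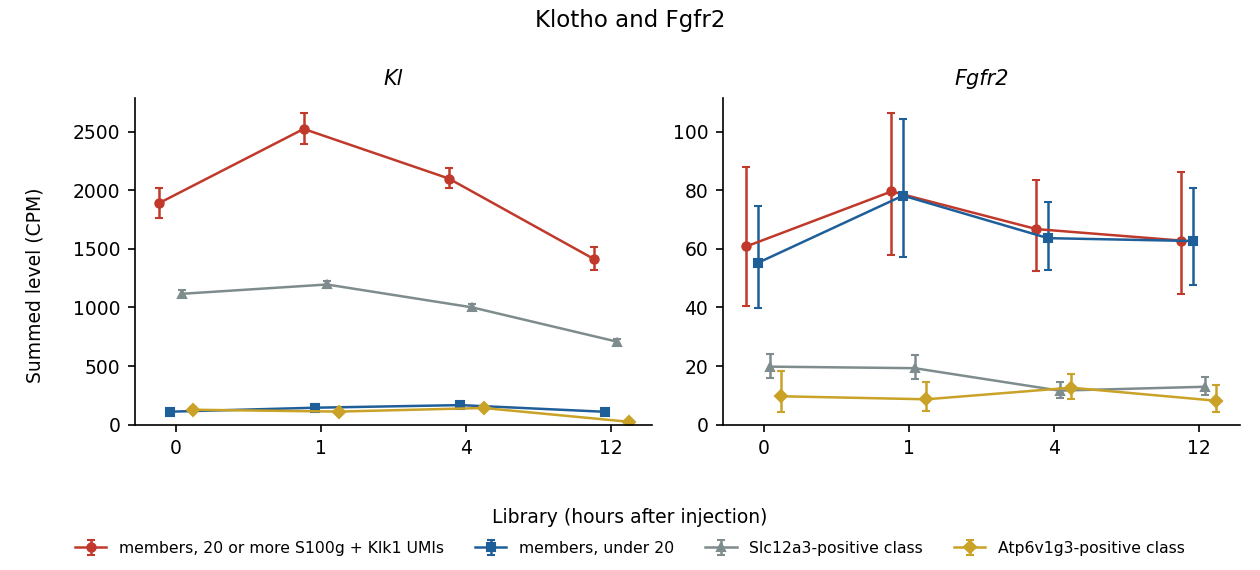
Summed level of Kl and Fgfr2 in CPM (linear axes from 0) by library in hours after injection, with exact Poisson 95% counting intervals as bars and lines joining the 4 libraries of S100g/Klk1-high members (red), S100g/Klk1-low members (blue), Slc12a3-positive distal convoluted cells (grey) and Atp6v1g3-positive intercalated cells (yellow). Kl is highest in the high range, next in distal convoluted cells and low in the other groups, while Fgfr2 lies above both other classes in both member ranges.

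The times were compared over summed members, calling a gene at a 2-fold or larger ratio to 0 h whose counting interval excluded 1. Of 7289 genes with at least 100 UMIs, 41 (0.562%) were called higher and 91 (1.25%) lower at 1 h. At 4 h, 138 (1.89%) were higher and 49 (0.672%) lower, and at 12 h, 86 (1.18%) were higher and 117 (1.61%) lower. Median log2 ratios over all these genes were -0.07, 0.04 and -0.04. Without the 46 members that held markers of other classes, 6697 genes were left. The calls were then 32 (0.478%) higher and 72 (1.08%) lower at 1 h, 77 (1.15%) and 49 (0.732%) at 4 h, and 40 (0.597%) and 111 (1.66%) at 12 h. Leaving those cells out brought the genes called higher at 4 h from 138 to 77 and at 12 h from 86 to 40. None of the calls was checked against a replicate, and calls at different times share the 0 h library.

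The gene group with the most lower calls was that of immediate early genes, transcription factors and regulators that many signals switch on within minutes. Of its 24 genes, 16 were measured over all members, with 1 called higher and 1 lower at 1 h, 2 and 2 at 4 h, and 1 and 8 at 12 h. These stand beside 0.562% of all genes higher and 1.25% lower at 1 h, 1.89% and 0.672% at 4 h, and 1.18% and 1.61% at 12 h. The list medians were -0.12, -0.20 and -1.01 beside -0.07, 0.04 and -0.04 over all genes. The 8 genes lower at 12 h were Fos, Fosl2, Jun, Junb, Egr1, Nr4a1, Zfp36 and Dusp1. Over all other cells the 12 h ratios were -2.26 for Fos, -1.09 for Jun and -1.08 for Junb. They were -1.68 for Egr1, -1.13 for Zfp36 and -2.15 for Dusp1, so these lower values were not limited to the members. Without the 46 members, 13 genes were measured and none was called higher at any time. Lower calls were 0, 2 and 8 at 1, 4 and 12 h, beside 1.08%, 0.732% and 1.66% of all genes. The higher calls of Cyr61 and Klf2 over all members were thus absent from that repeat. Klf2, an endothelial transcription factor, had 75% of its UMIs at 12 h in 1 cell.

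Nr4a1 (ENSMUSG00000023034, GRCm38 chr15:101254269-101274795, plus strand), an orphan nuclear receptor that cyclic AMP and calcium signals induce, had 106, 90, 33 and 7 UMIs. Its log2 ratios were -0.15, -2.97 and -4.17, and -3.38 (-4.18 to -2.71) and -3.99 (-5.43 to -2.99) at 4 and 12 h without the 46 members. Nr4a1 was far lower at both late times. In distal convoluted cells its ratios were 2.56 at 1 h and -3.98 and -3.49 at 4 and 12 h, and over all other cells 0.86, -2.21 and -1.43, so lower late values were not limited to the members. Its promoter is shown because it carries several copies of the short core of a cyclic AMP response element, a sequence class that genes of the vasopressin pathway often hold. The 250 bases before its start (RefSeq GRCm38.p6, chr15:101266596-101266845, plus strand) read as follows, with capitals marking TGACG on either strand, here always as its complement CGTCA.

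Nr4a1 promoter: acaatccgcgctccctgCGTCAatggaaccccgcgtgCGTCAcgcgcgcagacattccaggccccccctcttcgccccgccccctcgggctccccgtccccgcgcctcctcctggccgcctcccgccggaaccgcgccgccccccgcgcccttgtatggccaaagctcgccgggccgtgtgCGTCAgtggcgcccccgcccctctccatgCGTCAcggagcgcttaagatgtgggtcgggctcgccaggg

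The 4 matches begin at -233, -213, -69 and -40 from the start and do not overlap one another, although 17.8% of 32851 promoters of this length hold at least 1 match. A match is a description of the letters and not a site in use.

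Egr1, the early growth response transcription factor, is commonly used to read FGF23 signalling in kidney. Over all members it had 536, 620, 1110 and 217 UMIs, with log2 ratios of 0.29 (0.12 to 0.46), -0.25 (-0.40 to -0.10) and -1.64 (-1.88 to -1.42). Its level differed between the ranges. In the high range Egr1 stood at 109, 297, 133 and 33.1 CPM and in the low range at 639, 768, 509 and 209. The ratio at 1 h was 1.44 (0.99 to 1.94) in the high range and 0.27 (0.08 to 0.45) in the low range. The high range held 11 female- and 21 male-called members at 0 h and 24 and 15 at 1 h. The low range held 22 and 30, then 22 and 23. Over all members the 1 h Egr1 ratio was 0.85 in female-called and -0.33 in male-called members. The part of this sex mix in the high-range 1 h ratios, of Egr1 and of other genes, was not tested. In distal convoluted cells Egr1 stood at 33.1, 497, 154 and 17.2 CPM, and its 1 h ratio was 3.90. In intercalated cells the 1 h ratio was -0.56. The 1 h ratio of the high range thus lay between those of the low range and the distal convoluted cells, and the low range had the higher level at each time.

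Shares of cells were also compared. An Egr1 UMI was found in 31.6%, 72.3%, 47.9% and 11.4% of high-range members at 0, 1, 4 and 12 h. After thinning to 3000 UMIs the shares were 19.4%, 45.7%, 23.3% and 4.65%. Low-range shares at that depth were 55.2%, 66.7%, 43.6% and 32.1%, and intercalated shares 21.2%, 16.2%, 10.8% and 6.09%. Intercalated cells stood at 145, 98.8, 69.4 and 23.3 CPM. The high range was above them in level and share at 1 and 4 h. No order is read at 0 and 12 h, where the thinned high-range shares rest on 7 and 2 cells. The low range lay above them at all 4 times.

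Nab2 (ENSMUSG00000025402, GRCm38 chr10:127660918-127668568, minus strand), a co-repressor that EGR factors induce and that binds them in turn, differed in the same way. It had 6, 51, 60 and 9 UMIs in the high range, with log2 ratios of 2.69 (1.57 to 4.30), 1.93 (0.83 to 3.54) and 0.15 (-1.46 to 1.96). In the low range it had 67, 46, 46 and 11 UMIs, with ratios of -0.17, -1.85 (-2.43 to -1.29) and -2.86 (-3.98 to -1.98). Nab2 was higher at 1 and 4 h in the high range and lower at 4 and 12 h in the low range. Distal convoluted ratios were 3.84, 3.15 and 1.35.

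Fos, a component of the AP-1 transcription factor, did not follow Egr1. In the high range it stood at 250, 99, 70.3 and 51.2 CPM, log2 ratios of -1.33, -1.83 and -2.27, and in the low range at 567, 542, 659 and 190, ratios of -0.06, 0.22 and -1.57. Fos was lower at all 3 later times in the high range and at 12 h alone in the low range. Of 9 immediate early genes measured in the high range, 1 was called higher (Egr1) and 2 lower (Fos, Jun) at 1 h. These stand beside 1.07% of 3358 genes called higher and 1.52% called lower there. At 4 h 0 were called higher and 4 lower, beside 1.97% and 1.34%, and at 12 h 0 higher and 7 lower, beside 1.28% and 1.4%.

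Genes of ERK feedback, which limit the kinase pathway below FGF receptors, were listed together with other ERK targets and gave few calls. Of 18 listed genes, 8 were measured over all members, and 1, Ier3, was called higher, at 4 h, beside 1.89% of all genes. The list medians were -0.03, -0.06 and -0.13. Ier3, an early response gene that prolongs ERK activity, had 40, 91, 699 and 186 UMIs in the high range, or 86.9, 161, 622 and 307 CPM, with ratios of 0.88, 2.82 (2.38 to 3.34) and 1.81 (1.32 to 2.35). In the low range Ier3 stood at 124, 234, 176 and 158 CPM. The 4 h ratio in high-range members differed between the sexes of the pooled mice, at 0.68 in female-called and 3.68 in male-called members. Errfi1, a feedback inhibitor of the EGF receptor, had 18, 31, 95 and 25 UMIs in the high range and a 4 h ratio of 1.08 (0.38 to 1.93). In the high range 4 genes of the list were measured, and Errfi1 and Ier3 were called higher at 4 h, beside 1.97% of 3358 genes. In the low range 7 were measured and 0 called at any time. Of all 5869 genes measured there, 0.92% were higher and 0.835% lower at 1 h, 2.25% and 0.784% at 4 h, and 1.43% and 1.91% at 12 h. The classical feedback and target genes were scarce. Dusp6 had 9, 10, 43 and 15 UMIs over all members, Etv5 0, 2, 12 and 6, Spry1 47, 34, 149 and 61 and Spry2 40, 38, 88 and 44.

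Tnfrsf12a (ENSMUSG00000023905, GRCm38 chr17:23675445-23677468, minus strand) encodes the receptor for the cytokine TWEAK and is known to be induced in injured and growth-factor-treated epithelium. It had 22, 54, 213 and 25 UMIs over all members, with ratios of 1.36 (0.64 to 2.16), 1.94 (1.34 to 2.68) and -0.16. Tnfrsf12a was called higher at 1 and 4 h and was back near its 0 h level at 12 h. The high range had 4, 17, 128 and 13 UMIs and a 4 h ratio of 3.55 (2.32 to 5.61), the low range 18, 37, 85 and 12 and a ratio of 0.90. Distal convoluted ratios were 3.31, 5.05 and 2.83. The 250 bases before its start are shown because they hold GCGNGGGCG, the letters EGR factors bind. Capitals mark the matches (RefSeq GRCm38.p6, chr17:23677450-23677699, minus strand).

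Tnfrsf12a promoter: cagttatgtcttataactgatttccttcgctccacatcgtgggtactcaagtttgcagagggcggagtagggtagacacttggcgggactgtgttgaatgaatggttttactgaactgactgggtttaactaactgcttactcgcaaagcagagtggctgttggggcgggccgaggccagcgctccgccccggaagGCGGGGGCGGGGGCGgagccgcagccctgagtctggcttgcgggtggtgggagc

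The 2 matches begin at -54 and -48 and overlap each other. Such a match, on either strand, was found in 4.70% of the 32851 promoters, and none lay in the windows of Nab2 and Ier3. Matches also lay in the Nr4a1 window printed above (beginning at -60, minus strand) and in that of Zfp36 (-105), genes that were lower at 12 h.

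**Figure D4:**
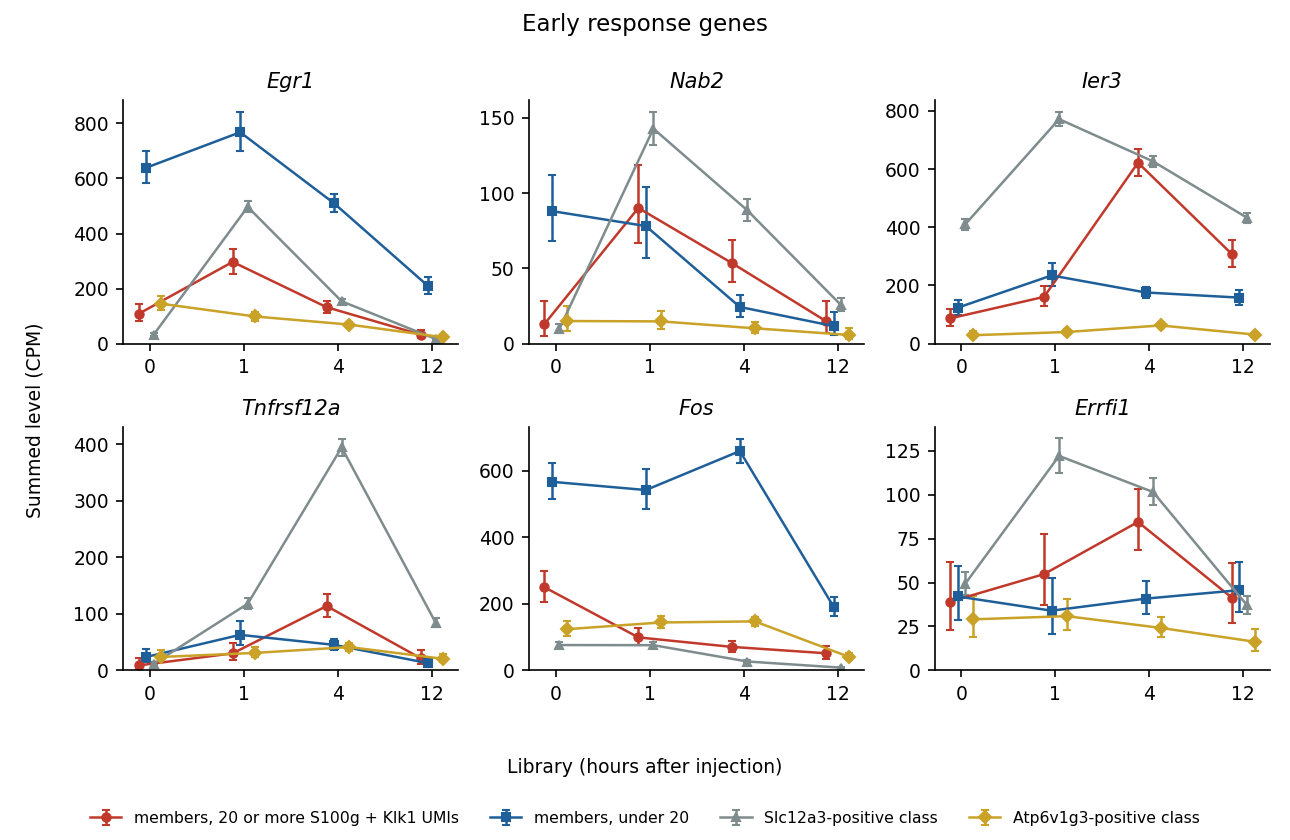
Summed level of 6 genes in CPM (linear axes from 0) by library in hours after injection, with exact Poisson 95% counting intervals as bars and lines joining the 4 libraries of S100g/Klk1-high members (red), S100g/Klk1-low members (blue), Slc12a3-positive (grey) and Atp6v1g3-positive cells (yellow). In the high range Egr1 and Nab2 are highest at 1 h, Ier3, Tnfrsf12a and Errfi1 at 4 h and Fos at 0 h.

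The aldosterone target Sgk1 was much lower in the members at the late times. Sgk1 (ENSMUSG00000019970, GRCm38 chr10:21882184-21999903, plus strand) had 854, 777, 416 and 176 UMIs over all members, or 699, 673, 138 and 114 CPM. Its level was alike at 0 and 1 h and far lower at 4 and 12 h, with log2 ratios of -0.06 (-0.20 to 0.09), -2.34 (-2.51 to -2.17) and -2.62 (-2.86 to -2.38). Both ranges showed it. High-range members stood at 363, 440, 128 and 54.5 CPM and low-range members at 903, 897, 144 and 152. The 4 and 12 h ratios were -1.50 and -2.72 in the high range and -2.65 and -2.57 in the low range. The median member had 6, 6, 1 and 1 UMIs and the highest 67, 34, 23 and 9. Thinned to 3000 UMIs, 71.3%, 74.2%, 26.8% and 22.6% of members held an Sgk1 UMI, against 6.06%, 7.62%, 7.21% and 4.35% of intercalated cells.

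The Sgk1 ratios of other classes were smaller. They were -0.31 and -1.11 at 4 and 12 h in distal convoluted cells, -0.07 and -0.84 in intercalated cells and 0.16 and -0.69 over all other cells. The difference between these ratios and those of the members was not tested, since each rests on 1 library per time. Female-called members gave -1.78 at 4 h and -1.82 at 12 h, and male-called members -2.84 and -3.52, so both sexes were lower. Clock and glucocorticoid-responsive genes also differed between the libraries. Nr1d1, a clock repressor, had 45, 37, 5 and 43 UMIs in the members and a 4 h ratio of -4.35, with -2.07 over all other cells. Dbp, a clock output factor, had 7, 18, 26 and 56 UMIs without the 46 members, a 12 h ratio of 2.65 (1.60 to 4.12). Per1, a clock gene that glucocorticoid also induces, had 30, 35, 42 and 14 UMIs. Of 15 glucocorticoid-responsive genes, 10 were measured. At 1, 4 and 12 h, 0, 2 and 0 were called higher, beside 0.562%, 1.89% and 1.18% of all genes. For lower calls the counts were 0, 1 and 3, beside 1.25%, 0.672% and 1.61%. The higher calls at 4 h were Mt1 (1.26) and Mt2 (1.33). The lower calls were Sgk1 at 4 h and Per1, Sgk1 and Dusp1 at 12 h. The calls of this list thus went both ways at 4 h. The part of the time of day in the Sgk1 values was not tested.

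RefSeq lists 6 starts of Sgk1. The window of 1 of them is shown because it holds the palindrome to which the receptors for glucocorticoid and mineralocorticoid bind, sought as GNACA and TGTNC with 3 bases between them. Capitals mark the match in the 250 bases before that start (RefSeq GRCm38.p6, chr10:21993640-21993889, plus strand).

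Sgk1 promoter, start 5: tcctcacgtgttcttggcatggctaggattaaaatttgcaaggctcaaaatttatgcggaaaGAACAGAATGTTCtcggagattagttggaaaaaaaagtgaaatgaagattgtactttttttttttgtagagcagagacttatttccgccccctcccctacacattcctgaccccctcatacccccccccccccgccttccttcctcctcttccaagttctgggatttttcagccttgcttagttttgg

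The match runs from -188 to -176 relative to the start. It occurs, on either strand, in 0.387% of the 32851 promoters. Libraries of 3' ends do not show which start was used.

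Most of the remaining sodium and potassium genes were under 2-fold from their 0 h levels. Of 21 listed, 20 were measured and none was called higher. The lower calls were Sgk1 at 4 h and Sgk1 and Usp2 at 12 h, beside 0.672% and 1.61% of all genes. The list medians were -0.05, -0.12 and -0.04. Scnn1a stood at 375, 342, 315 and 343 CPM and Scnn1g at 432, 477, 431 and 480. Scnn1b, the beta subunit, had ratios of -0.10, -0.14 and 0.35. Usp2, a deubiquitinase gene known to respond to aldosterone and to the clock, had 137, 144, 238 and 80 UMIs and a 12 h ratio of -1.11. Nr3c2, the mineralocorticoid receptor, had ratios of -0.51, -0.71 and -0.69, and Nedd4l, the ubiquitin ligase that removes the sodium channel, -0.68, -0.47 and -0.41, both lower at each later time with counting intervals below 0 but under 2-fold. Tsc22d3 (GILZ), another corticoid target, had 43, 37, 105 and 33 UMIs, with ratios of -0.13, -0.02 and -0.72.

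Among the water transport genes, Aqp4 was the gene called. Of 12 listed genes 10 were measured and none was called higher. At 1, 4 and 12 h, 1, 0 and 1 were called lower, beside 1.25%, 0.672% and 1.61% of all genes. The list medians were -0.26, -0.10 and -0.29. Aqp4, a basolateral water channel, had 283, 126, 574 and 65 UMIs over all members, or 232, 109, 191 and 42.0 CPM. Its ratios were -1.08 (-1.40 to -0.78), -0.28 (-0.49 to -0.07) and -2.45 (-2.88 to -2.07), lowest at 12 h and with no steady course between. Nearly all of it came from low-range members, with 257, 126, 569 and 62 UMIs there against 26, 0, 5 and 3 in the high range. Within the low range the ratios were -0.66, -0.16 and -2.35. It was carried by few cells, since 26 of 58, 24 of 52, 46 of 114 and 24 of 82 low-range members held an Aqp4 UMI and the highest single cell held 48, 31, 181 and 14. Intercalated cells had 0 UMIs of Aqp4 in all 4 libraries. Aqp2, used by the rule, stood at 6378, 4730, 5942 and 4143 CPM, and Aqp3 at 2181, 1656, 1568 and 1659, ratios of -0.40, -0.48 and -0.39. The vasopressin receptor gene Avpr2 stood at 295, 291, 327 and 331 CPM.

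Of 13 collecting duct transcription factor genes, all measured, Elf5 was called lower at 12 h, beside 1.61% of all genes, and none higher. The list medians were -0.16, -0.07 and -0.10.

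Among genes for the epithelial cytoskeleton and junctions, Krt8, Krt19 and Cldn4 were higher at 4 h. These were 3 of 13 listed genes, all measured, beside 1.89% of all genes called higher at 4 h. At 12 h 2 were called higher (Krt19, Cldn4) and at 1 h 1 (Krt19), beside 1.18% and 0.562% of all genes. None was called lower at any time. The list medians were -0.16, 0.34 and -0.02. Krt8, a simple-epithelium keratin, had 277, 206, 1518 and 384 UMIs without the 46 members and a 4 h ratio of 1.35 (1.17 to 1.54). Krt19, a keratin of ducts and of stressed tubules, had 1, 5, 136 and 11 UMIs in the same cells, a 4 h ratio of 5.40 (3.48 to 11.30). Over all members its 155 UMIs at 4 h lay in 50 cells, of which the highest held 12.9%. Its 77 UMIs at 1 h over all members came mostly from 1 cell, with 74.0% of them. Cldn4, a tight junction gene, stood at 83, 117, 421 and 232 UMIs over all members, ratios of 0.57, 1.03 and 1.14.

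Clu (ENSMUSG00000022037, GRCm38 chr14:65968483-65981547, plus strand), the chaperone clusterin known as a marker of tubule injury, stood at 1155, 1852, 2808 and 2650 CPM over all members. Its ratios were 0.68, 1.28 and 1.2, so it was above the 0 h level at each later time. Without the 46 members, low-range members had 204, 442, 2156 and 1140 UMIs, ratios of 1.48, 2.32 and 2.23, and high-range members stood at 2618, 3184, 5516 and 4886 CPM, ratios of 0.28, 1.07 and 0.90. Clu was higher in other cells too, with 0.18, 1.08 and 1.29 over all other cells and 0.31, 0.82 and 1.12 in distal convoluted cells, while intercalated cells gave 0.50, 0.36 and -0.97. Of the 14 listed injury genes, 6 were measured without the 46 members, with 1, 2 and 1 called higher (Tnfrsf12a, then Tnfrsf12a and Clu, then Clu) and Gdf15 lower at 12 h. In those cells 0.478%, 1.15% and 0.597% of all genes were called higher at 1, 4 and 12 h, and 1.66% lower at 12 h. Over all members 8 injury genes were measured and 3, 4 and 1 were called higher, beside 0.562%, 1.89% and 1.18% of all genes. Sprr1a and S100a6 made up the difference. Of Sprr1a, 1 cell held 72.7% of the UMIs at 1 h.

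**Figure D5:**
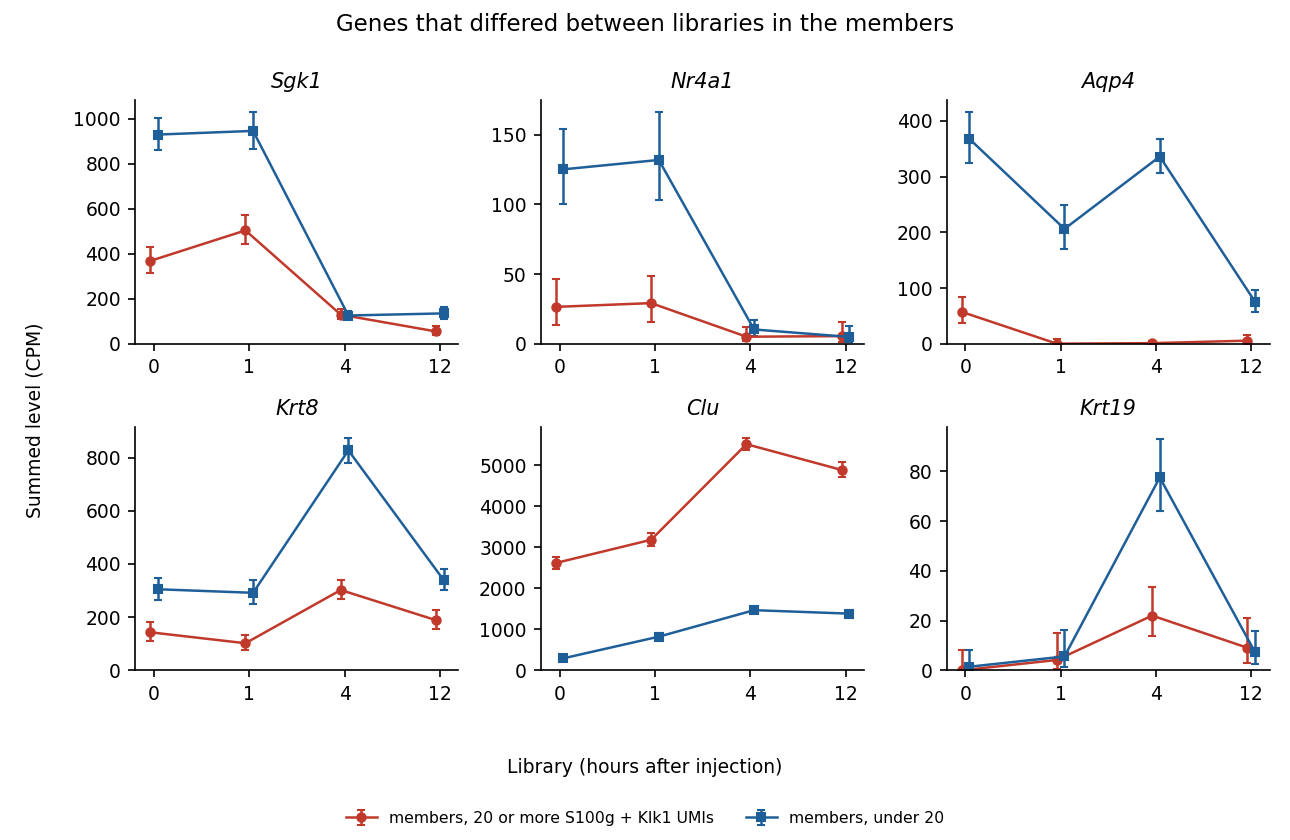
Summed level of 6 genes in CPM (linear axes from 0) by library in hours after injection in S100g/Klk1-high (red) and S100g/Klk1-low members (blue), without the 46 members holding markers of other classes, with exact Poisson 95% counting intervals as bars and lines joining the 4 libraries. Sgk1 and Nr4a1 lie lower at 4 and 12 h than at 0 h in both ranges, Aqp4 lies higher in the low range, Krt8 and Krt19 are highest at 4 h in both, and Clu is above its 0 h level at each later time in both.

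Among genes that passed the naming limits given under processing, the largest ratios over all members rested on cells with markers of other classes. At 1 h, Sprr1a, Ly6d, Krt19 and Gstm1 were among the highest, with 0, 1, 1 and 171 UMIs at 0 h and 66, 194, 77 and 694 at 1 h, and 72.2% to 76.1% of the 1 h UMIs of the last 3 came from 1 cell. Ly6d marks urothelium, whose markers were also seen at 1 h. At 4 h, the smooth muscle genes Acta2, Tagln, Myl9, Myh11 and Tpm2 went from 0 UMIs to 363, 175, 115, 110 and 108, and in each 1 cell held 35.2% to 45.5%. Without the 46 members Gstm1 was at -0.079 at 1 h and Myh11 at -1.10 at 4 h.

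Without those cells the largest ratios within the same limits lay elsewhere. At 1 h the higher genes were Igtp (1.92), Iigp1 (1.84), Tnfrsf12a, Trabd2b (1.45), Irgm1 (1.44) and Mtfp1 (1.35). Igtp, Iigp1 and Irgm1 encode interferon-inducible GTPases. Bbs4 (-1.99), Spa17 (-1.93), Hist3h2ba (-1.64), Uhrf1bp1 (-1.56), Hcfc1 (-1.45) and Car15 (-1.41) were the lower ones, each with 7 to 13 UMIs at 1 h. At 4 h the higher genes were Krt19, Iigp1 (2.84), Tubb5 (2.51), Slfn2 (2.42), Tnfrsf12a and Igtp (1.93). The lower ones included Nr1d1, Nr4a1, Sgk1, Esrrg (-1.88) and Gstp1 (-1.74). Esrrg, a nuclear receptor of energy metabolism in tubules, had 55, 42, 32 and 32 UMIs. At 12 h Krt19 (2.68), Dbp, Rrm2 (1.92), Slfn2 (1.87), Lars2 (1.55) and Mxra7 (1.42) were the higher genes, and Nr4a1, Sgk1, Aqp4, Id4 (-2.33) and Gadd45g (-2.29) were among the lower. Lars2 had a ratio of 1.53 over all other cells. The higher genes at 4 h were in part the product of few cells. Over all members at 4 h, Tubb5, a tubulin, had UMIs in 113 cells with 19.6% in 1 of them, whereas Iigp1 had UMIs in 10 with 46.9% in 1.

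The other lists had few calls or none over all members. Beside them, 0.562% of all genes were called higher and 1.25% lower at 1 h, 1.89% and 0.672% at 4 h, and 1.18% and 1.61% at 12 h. So few calls in such short lists are not read as a result about a list. Translation initiation had 35 of 36 genes measured and 0 called at any time, with medians of -0.01, 0.21 and 0.03. Vitamin D, calcium and phosphate genes had 10 of 14 measured and 0 called, with medians of 0.20, 0.31 and 0.04, and Cyp24a1, the vitamin D-degrading enzyme, had 2, 4, 23 and 12 UMIs. Endothelin, prostaglandin and purine signalling had 6 of 12 measured and 0 called. Heat shock genes, all 12 measured, had 1 called higher at 4 h (Hspb1) and 1 lower at 12 h (Dnajb1). Of 26 TNF and NF-kB genes 11 were measured, with Tnfrsf12a higher at 1 h and Nfkb2 and Tnfrsf12a higher at 4 h. EGF family genes had 6 of 12 measured, with Btc lower at 1 h, Egf at 4 h and Hbegf at 12 h. Osmoprotective genes had 6 of 8 measured and Slc5a3 called lower at 12 h. Of metallothioneins and zinc genes 5 of 8 were measured, and Mt1 and Mt2 were higher at 4 h. The Bmal1-phase clock list had 2 of 5 measured and 0 called. The Dbp-phase list had 5 of 10 measured, with Dbp higher at 1 and 12 h, Nr1d1 lower at 4 h and Per1 and Per2 lower at 12 h.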

How the data were processed

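The deposited matrices hold raw UMI counts per gene and barcode, written by Cell Ranger 3.1.0 per the file headers. STAR, Seurat and mm10 are named in the submitters' processing notes, and further settings are not given in the sources used here. Counts were summed per library over the members and scaled to a common total (CPM), with Poisson intervals computed exactly. For log2 ratios to 0 h, 0.5 was added to each count and the 95% interval came from the conditional binomial. Shares have exact Clopper-Pearson intervals. Genes needed 100 UMIs over the 4 libraries. A count of 0 allows up to 3 counts. Intervals and floors cover counting error only.

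Doublets were called from simulated doublets (30 neighbours, 30 components, 2000 variable genes, 0.8% per 1000 cells). Members called doublets were kept and removed as an alternative. Comparison classes had 3 or more UMIs of Slc12a3 (1884 cells) or Atp6v1g3 (541 cells), at most 1 of Aqp2, and the rule's other limits. The named genes were the 6 largest calls per time and direction that had the same direction in female- and male-called members. Their CPM in the members also had to reach a set fraction of that in all other cells. Mitochondrial, ribosomal protein, haemoglobin, immunoglobulin, sex-linked and unnamed clone genes were left out. A gene that this rule named is not reported here. The members and gene lists were chosen with earlier results of these data known. The S100g/Klk1 range, its cut and the repeat without 46 members holding markers of other classes were added after the values were seen. Positions come from GENCODE vM21 (GRCm38) by gene ID. The ratios and calls were also run on simulated counts. The scripts used Python 3.11.15, numpy 2.4.6, scipy 1.17.1, pandas 2.3.3 and scikit-learn 1.9.0.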

Additional observations from a re-analysis of the deposited data

Results flagged for a closer look

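Several values had opposite directions at different times or in the 2 sexes. None of these differences was tested, because each time has 1 library and the sexes were called within it.

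Over all members the Kl log2 ratio was 0.75 at 1 h and 0.19 at 4 h against -0.33 at 12 h. Egr1 was at 0.29 at 1 h against -0.25 at 4 h and -1.64 at 12 h. Nab2 was at 0.49 at 1 h against -0.77 and -2.18 at 4 and 12 h. Gstm1 was at 2.10 at 1 h against -0.44 and -0.41, with 76.1% of its 1 h UMIs in 1 cell.

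Between the sexes, Kl at 4 h was at -0.55 in female-called and 0.34 in male-called members. At 1 h Egr1 was at 0.85 and -0.33, Sgk1 at 0.33 and -0.33, Jun at 0.47 and -0.69, Gadd45g at 0.64 and -0.75, and Fxyd4 at -0.62 and 0.10, each with the female-called value first. At 4 h, in the same order, Fos was at 0.57 and -0.36 and Jun at 0.79 and -0.29.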

How the results depend on the processing

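No paired analysis was possible because every time has 1 library. No replicate could be left out for the same reason. Of the values a comparison rests on, 160 stayed and 54 moved when 1 setting was changed. Under settings added after seeing the data, 54 stayed and 7 moved. Staying meant lying within the counting spread, or within a set fold for counts of called genes. For single genes and the medians of the other lists, the same 2 kinds of change left 1092 and 147 within their spread. These changes moved 294 and 18 values and turned 2 and 4. The cause of these moves was not tested.

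With a mitochondrial limit of 25%, Kl was at 0.31, 1.24 and 0.20 at 1, 4 and 12 h from a 0 h level of 240 CPM (830 in the high range), Egr1 at -0.46 at 4 h, and lower calls at 1 h numbered 54. High-range Egr1 was then at -0.34 and -2.90 at 4 and 12 h and Sgk1 at 0.75 at 1 h. With each cell weighted equally, Kl was at 0.49, 0.32 and -0.58 and Egr1 at 0.54, -0.40 and -1.37. Female-called members gave Kl -0.55 and -0.74 at 4 and 12 h, Egr1 0.85, 0.26 and -1.17, an ERK list median of 0.95 at 4 h and immediate early medians of 0.20 and 0.26 at 1 and 4 h. Male-called members gave Kl 0.34 and -0.0037, Egr1 -0.33, -0.44 and -1.90 and an immediate early median of -1.45 at 12 h. The 14, 10, 10 and 7 members under 3 summed UMIs of Calb1, Slc8a1 and Trpv5 gave 17 higher and 18 lower calls at 1 h, 23 higher at 4 h, and 9 and 20 at 12 h. In them Kl was at 152 CPM at 0 h with ratios of 0.17, -1.29 and 1.03, Egr1 at 0.46, -3.46 and -5.25, the immediate early medians at 0.46, -3.46 and -3.89, Rrm2 turned to -0.65 at 12 h and Slfn2 to -0.45 at 4 h. With no UMI minimum the calls were 142 higher and 176 lower at 1 h, 438 and 199 at 4 h and 251 and 248 at 12 h, and the ERK median at 4 h was 0.47.

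A cut of 100 summed UMIs of S100g and Klk1 gave high-range Egr1 -0.36 at 4 h and -3.42 at 12 h, an Slc34a1 limit of 2 gave -0.35 at 4 h, and removal of doublet calls gave -2.66 at 12 h. Without the 46 members, higher calls numbered 77 at 4 h and 40 at 12 h, high-range Egr1 was at -2.63 at 12 h, low-range Egr1 at -0.49 and low-range Sgk1 at -2.89 at 4 h. In that repeat Gstm1 turned to -0.079 at 1 h, Myh11 and Rgs5 to -1.10 at 4 h and Klf2 to -0.26 at 12 h. The -1.10 is the value that equal counts at 0 and 4 h give with these totals. It is thus not read as a lower level of Myh11 or Rgs5. Depth limits Fgfr3, Fgfr4, Etv5 and other genes with few UMIs.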

Other observations

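Stmn1, Tubb5 and Tuba1c, genes of tubulin or its binding that were picked after their values were seen and stand for no fixed list, were higher at 4 h in the S100g/Klk1-high members without markers of other classes. Stmn1, which binds free tubulin, had 2 UMIs at 0 h and 116 at 4 h, a log2 ratio of 4.40 (counting interval 2.83 to 7.78). Tubb5 had 3 and 110 UMIs, a ratio of 3.84 (2.47 to 6.36), and Tuba1c had 21 and 181, a ratio of 1.94 (1.31 to 2.70). In low-range members Stmn1 was at 0.81 and Tubb5 at 1.92. Stmn1 counts over all members at 4 h came from 26 cells, and 1 of them held 45.7%.

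The metal-binding genes Mt1 and Mt2 were highest in the 4 h members. Mt1 had 408, 539, 2403 and 627 UMIs over all members at 0, 1, 4 and 12 h and a 4 h ratio of 1.26, and Mt2 had 59, 65, 369 and 84 and a ratio of 1.33. Over all other cells the 4 h ratios were larger, at 2.16 for Mt1 and 1.88 for Mt2.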
